A study of Mus musculus with 13 samples.

Results

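Gene expression was compared between 4 resistant and 4 sensitive arrays of CD31-sorted cells, which are 8 of the 13 arrays of the study. All genes with a probe set of their own were considered, 18193 in number from 45101 probe sets, and 15384 genes were tested, those above a floor of 2.01 on 4 or more of these 13 arrays. Values are log2 intensities throughout, and a difference is the mean of the resistant arrays minus the mean of the sensitive arrays. The cells came from tumors of SKOV3ip1, a human ovarian cancer line carrying luciferase, grown in female athymic nude mice, which have no thymus and therefore lack most T cells. Mice of the sensitive and resistant groups were given B20, an antibody that blocks VEGF-A, on which vessel growth depends, and were assigned by the light signal of their tumors. Sensitive tumors were taken at the strongest response and resistant tumors at progression, so that response and time on treatment cannot be told apart. The labels do not say what the 5 control mice received, and the sources used here give no ages of the animals. The paper names a control IgG group of 5 mice beside B20, and also cells collected before treatment. It does not tie the control arrays to either. Tumors were digested with enzymes and freed of red cells and platelets. FACS then sorted tumor cells on CD326 and endothelial cells on CD31. The arrays were thus meant to report mouse cells of the CD31 gate, and carry-over of human tumor cells was not tested. Each array is labelled as a separate biological replicate without a named animal, and p-values therefore measure the spread between these samples.

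CD31, encoded by Pecam1, is a cell adhesion protein that is abundant on endothelial cells and is also carried by platelets and some myeloid cells. Blockade of VEGF-A removes a survival and growth signal of the endothelium. Macrophages of tumors and of the peritoneal cavity take up dying cells and lipid, degrade them in lysosomes, and release complement, coagulation factors, lipid mediators and growth factors.

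The label of the cells was checked against endothelial markers first. Pecam1 itself lay between 2.32 and 3.41 on the 8 arrays, close to the floor. It was 2.39, 2.42 and 2.61 on control arrays 1 to 3 and 6.56 on control arrays 4 and 5. Medians of the endothelial identity list were likewise 3.15, 3.22 and 3.20 on control arrays 1 to 3, and 6.72 and 6.83 on control arrays 4 and 5. Cdh5, the cadherin of endothelial junctions, was 2.24, 2.11, 2.33 and 3.27 on sensitive arrays 1 to 4 and 4.28, 2.87, 4.16 and 3.13 on resistant arrays 1 to 4, against 7.96 and 8.06 on control arrays 4 and 5. Pecam1 was therefore near the floor in both groups compared, whereas Cdh5 was near it on the sensitive arrays and up to 4.28 on the resistant arrays, below control arrays 4 and 5. Macrophage list medians were 4.55, 5.08, 5.33 and 9.63 on sensitive arrays 1 to 4. They were 9.66, 8.04, 8.95 and 9.20 on resistant arrays 1 to 4, and 8.025 to 9.31 on the controls. Sensitive array 4 thus had the macrophage level of the resistant arrays, and sensitive arrays 1 to 3 lay below all controls. Mesothelial list medians were 6.44, 7.46, 2.60 and 2.56 on the sensitive arrays and 3.35, 6.74, 5.41 and 3.86 on the resistant arrays. Fibroblast and pericyte list medians were 6.08, 6.25, 4.88 and 3.55 on the sensitive arrays and 4.32, 7.01, 5.57 and 4.75 on the resistant arrays. Sensitive array 4 also had the widest gap between 3′ and 5′ control probe sets, 5.95 against 2.23 to 3.82 on the other 7 arrays. Sensitive arrays 1 and 2 had the highest means of the spiked controls among the 8 arrays, 10.61 and 9.52. Resistant array 4 came next at 9.27, and control array 3 was at 9.67. Medians of the deposited values were likewise highest on sensitive arrays 1 and 2, at 3.04 and 3.03, followed by 2.92 on resistant array 4. The cause of these technical differences was not tested. Pairs of sensitive arrays correlated at 0.664 to 0.919 and pairs of resistant arrays at 0.897 to 0.955. In bulk samples, fewer cells of a type and less RNA per cell cannot be told apart. Results below are given for all 8 arrays, and with sensitive array 4 or sensitive arrays 1 to 3 left out where the value turned on them.

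Of the 15384 genes, 2 passed limma's adjusted p of 0.05, and both rose in the resistant arrays, so that the percentage called was 0.0130 for higher genes. Cd5l, a scavenger receptor family protein secreted by tissue macrophages, was 4.68, 2.49, 3.09 and 4.48 on the sensitive arrays and 8.77, 9.11, 8.37 and 7.90 on the resistant arrays. Alox15, a lipoxygenase of resident peritoneal macrophages, was 2.57, 3.93, 2.99 and 4.18 on the sensitive arrays and 7.12, 7.58, 7.29 and 7.07 on the resistant arrays. The groups of both genes were far apart, and sensitive array 4 lay with the other sensitive arrays. Both genes belong to the list of large peritoneal macrophages, whose medians were 4.47, 4.59, 3.55 and 5.12 on the sensitive arrays and 7.54, 6.77, 6.88 and 7.07 on the resistant arrays. This list thus also placed sensitive array 4 with the sensitive arrays, unlike the general macrophage list. Cd5l rose by 4.86 (SE 0.55) and Alox15 by 3.85 (SE 0.44), each with a limma adjusted p of 0.0408. Control arrays spread from 3.34 to 8.71 for Cd5l and from 3.81 to 7.11 for Alox15, and thus spanned much of the gap between the groups. Prg4, which encodes the lubricant proteoglycan lubricin, was 5.05, 4.96, 3.74 and 6.52 on the sensitive arrays and 9.34, 9.39, 9.24 and 9.06 on the resistant arrays, with an adjusted p of 0.0681. These 3 genes stand here as references, since their pattern was known from earlier work on these data. Leaving out any 1 array other than sensitive array 4 ended both calls, at adjusted p of 0.0884 to 0.347, and a fit with the control arrays included gave 0 calls.

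Leaving out sensitive array 4 gave 147 called genes, 146 of them higher, a percentage called of 0.949. Of the 147 genes, 112 lay outside the macrophage, hypoxia and related lists that were set aside, and 127 were at least as high on sensitive array 4 as on the lowest resistant array. These calls therefore describe sensitive arrays 1 to 3 against the resistant arrays. Their macrophage list medians differed in the same way, and the part of the macrophage level in these calls was not tested.

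At an unadjusted p of 0.05, 448 genes were higher and 150 lower, percentages of 2.91 and 0.975. The middle of all genes was at -0.07, and 42.1% of the differences were positive. Among the higher genes outside the lists set aside, 281 of 388 were at least as high on sensitive array 4 as on the lowest resistant array. Among the lower ones, 53 of 149 were at or below the highest resistant array there. The groups did not overlap for 150 higher genes and 138 lower genes, percentages of 0.975 and 0.897. Of these, 89 higher and 16 lower genes differed by at least 1. Outside the lists set aside, the groups did not overlap for 130 higher and 137 lower genes. Dim genes made up more of the lower set, with 41 of the 137 lower genes under a mean of 3 against 21 of the 130 higher genes.

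**Figure D1:**
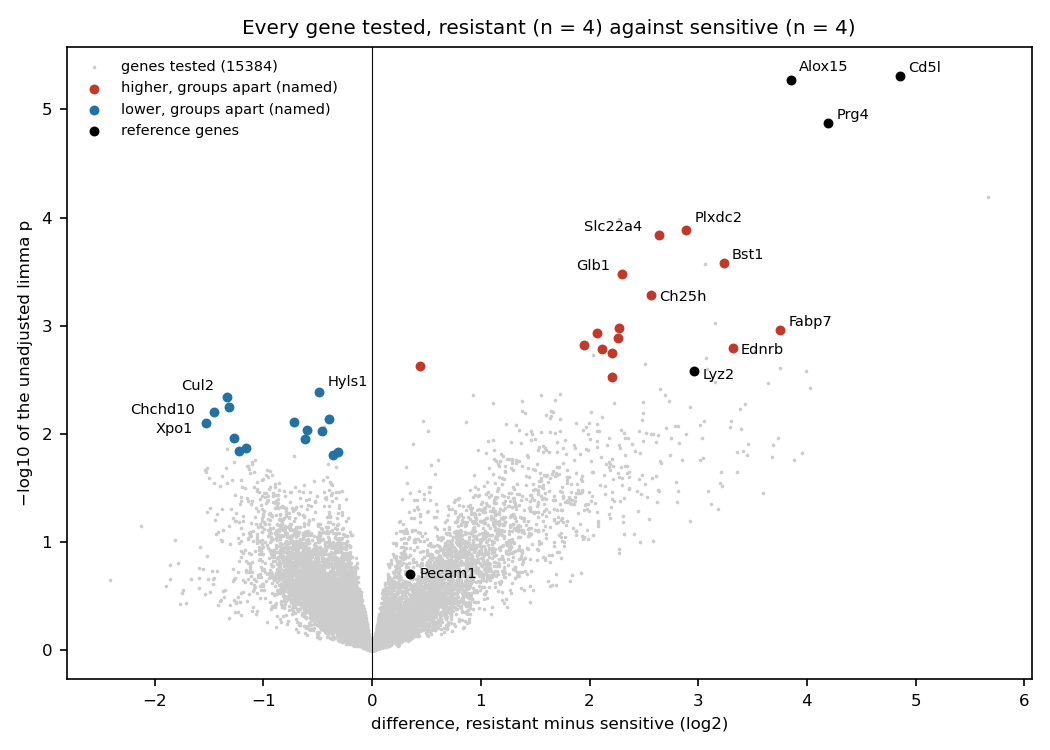
Every tested gene is a point, with the difference between resistant (n = 4) and sensitive (n = 4) arrays on the log2 scale across and the −log10 of the unadjusted limma p upward. Cd5l and Alox15 are the called genes at 4.86 and 3.85, large differences lie mostly to the right, and the named lower genes reach -1.53 for Xpo1.

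Genes outside those lists are named below where the 8 arrays separated the groups completely, taking the 15 higher and the 15 lower genes with the smallest p. None of the 30 passed the adjustment over all genes, with limma adjusted p from 0.318 to 0.949, and their values are given as measured. Promoter sequences are shown for Cd5l, a called gene, and for Slc22a4, Glb1 and Pltp, named genes of transport, lysosome and lipid transfer, so that a reader has the sequence beside the levels. Each run is the 250 bases before the listed start, 5′ to 3′ on the gene's strand, from RefSeq on GRCm38.p6. Capitals mark matches, on either strand, to ACGTG (the core of E-box and hypoxia response elements), AGGTCA (the nuclear receptor core) and GAGGAA (the core of sites of PU.1, a myeloid factor).
Cd5l, chr3:87357631-87357880, plus strand: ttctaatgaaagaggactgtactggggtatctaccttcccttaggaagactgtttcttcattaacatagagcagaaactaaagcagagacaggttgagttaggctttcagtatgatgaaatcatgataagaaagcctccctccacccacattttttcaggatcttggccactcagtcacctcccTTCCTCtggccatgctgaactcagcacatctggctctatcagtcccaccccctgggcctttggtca
Slc22a4, chr11:54028105-54028354, minus strand: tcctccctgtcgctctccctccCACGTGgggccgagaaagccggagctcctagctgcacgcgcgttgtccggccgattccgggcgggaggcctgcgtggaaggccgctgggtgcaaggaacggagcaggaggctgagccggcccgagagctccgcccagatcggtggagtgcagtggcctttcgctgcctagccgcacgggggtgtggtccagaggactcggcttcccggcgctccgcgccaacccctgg
Glb1, chr9:114400828-114401077, plus strand: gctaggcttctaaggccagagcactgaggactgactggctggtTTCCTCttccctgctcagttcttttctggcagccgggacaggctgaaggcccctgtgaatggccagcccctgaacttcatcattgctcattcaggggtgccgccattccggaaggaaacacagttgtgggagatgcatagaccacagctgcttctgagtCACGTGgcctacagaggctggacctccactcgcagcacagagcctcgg
Pltp, chr2:164857709-164857958, minus strand: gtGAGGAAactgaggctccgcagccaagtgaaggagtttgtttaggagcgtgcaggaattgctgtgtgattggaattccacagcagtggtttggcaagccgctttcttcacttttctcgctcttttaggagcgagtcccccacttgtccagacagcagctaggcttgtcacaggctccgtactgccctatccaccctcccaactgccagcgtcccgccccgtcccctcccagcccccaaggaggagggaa
The run CACGTG reads the same on both strands and holds 2 overlapping ACGTG matches. ACGTG was found in 16.57% of 27025 promoters of this length, AGGTCA in 13.84% and GAGGAA in 23.13%. Among the 13 higher named genes with a promoter entry, 3 held ACGTG, 2 AGGTCA and 3 GAGGAA, and among the 12 lower ones 3, 1 and 2. A match is a description of these letters and not a binding site.

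Several of the named higher genes serve lysosomes and lipid handling. Glb1, the lysosomal beta-galactosidase, was 4.59, 5.32, 4.97 and 6.40 on sensitive arrays 1 to 4 and 7.75, 7.55, 7.48 and 7.69 on resistant arrays 1 to 4, a difference of 2.30 (SE 0.43). The resistant arrays lay close together, above the sensitive arrays and above the control range of 5.29 to 6.82. Pltp, which moves phospholipid between lipoproteins and is induced by liver X receptors, was 8.35, 7.15, 6.80 and 6.10 on the sensitive arrays and 9.56, 8.62, 9.998 and 9.29 on the resistant arrays, a difference of 2.27 (SE 0.52). Pltp is the named higher gene for which sensitive array 4 was lowest among the sensitive arrays, and all controls, at 8.94 to 9.35, were above the sensitive arrays. Ch25h, which makes the oxysterol 25-hydroxycholesterol, was 4.06, 4.82, 2.93 and 5.17 on the sensitive arrays and 7.13, 6.38, 6.78 and 6.94 on the resistant arrays, a difference of 2.56 (SE 0.51). Fabp7, a carrier of fatty acids, was at the floor on sensitive arrays 1 to 3, at 5.46 on sensitive array 4 and at 8.03, 6.17, 5.74 and 6.58 on the resistant arrays. Its gap therefore rests on a narrow distance between sensitive array 4 and resistant array 3. Apol8, of the apolipoprotein L family, differed by 2.11 (SE 0.50).

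Receptors, transporters and enzymes of the cell surface formed another set of named higher genes. Plxdc2, a transmembrane protein with a plexin domain, was 4.06, 4.73, 3.63 and 5.34 on the sensitive arrays and 7.43, 6.52, 7.41 and 7.93 on the resistant arrays, a difference of 2.89 (SE 0.48). The other probe sets of Plxdc2 differed by 0.72 and 0.79. Slc22a4, a transporter of ergothioneine and organic cations, was 2.44, 2.01, 2.01 and 2.89 on the sensitive arrays and 4.66, 4.01, 5.91 and 5.34 on the resistant arrays, a difference of 2.64 (SE 0.45). Slc22a4 was thus near the floor on every sensitive array, including array 4. Bst1, the surface enzyme CD157 that converts NAD, was 3.89, 3.22, 2.75 and 5.04 on the sensitive arrays and 7.77, 5.85, 6.88 and 7.34 on the resistant arrays, a difference of 3.24 (SE 0.59). Ednrb, the endothelin receptor type B, was 2.60, 2.22, 2.16 and 5.85 on the sensitive arrays and 7.17, 6.15, 6.22 and 6.55 on the resistant arrays, a difference of 3.32 (SE 0.78). For Ednrb, sensitive array 4 stood just under the lowest resistant array and far from the other sensitive arrays. The other probe sets of Ednrb differed by 1.28 and 0.24, and their groups overlapped. Cd302, a C-type lectin of phagocytes, differed by 2.21 (SE 0.57), with sensitive array 4 at 7.11 just under the lowest resistant array at 7.27.

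Among secreted and intracellular products, Chil1, a chitinase-like protein released by macrophages and neutrophils, was 7.22, 6.60, 5.62 and 7.54 on the sensitive arrays and 9.79, 8.74, 9.18 and 8.35 on the resistant arrays, a difference of 2.27 (SE 0.50). Its control arrays ran from 4.80 to 10.21 and enclosed both groups. Slfn4, a Schlafen gene of myeloid cells that responds to interferon, was 3.71, 3.54, 4.64 and 4.81 on the sensitive arrays and 6.89, 5.99, 5.84 and 5.79 on the resistant arrays, a difference of 1.95 (SE 0.45). Its controls, at 6.43 to 8.20, were all above the sensitive arrays and reached past the resistant arrays. Lonrf3, a RING finger protein, and Sh3tc1, named for its SH3 domain, differed by 2.07 (SE 0.46) and 2.20 (SE 0.52). Dpp10 differed by 0.44 (SE 0.11) and lay near the floor in both groups. Among these 15 genes, sensitive array 4 was the highest sensitive array for 13, all controls were above the sensitive arrays for 7, and all controls were below the resistant arrays for 2, Glb1 and Lonrf3. These 15 were picked by p, and among all 130 higher genes without overlap outside the lists set aside the counts were 73, 33 and 17.

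**Figure D2:**
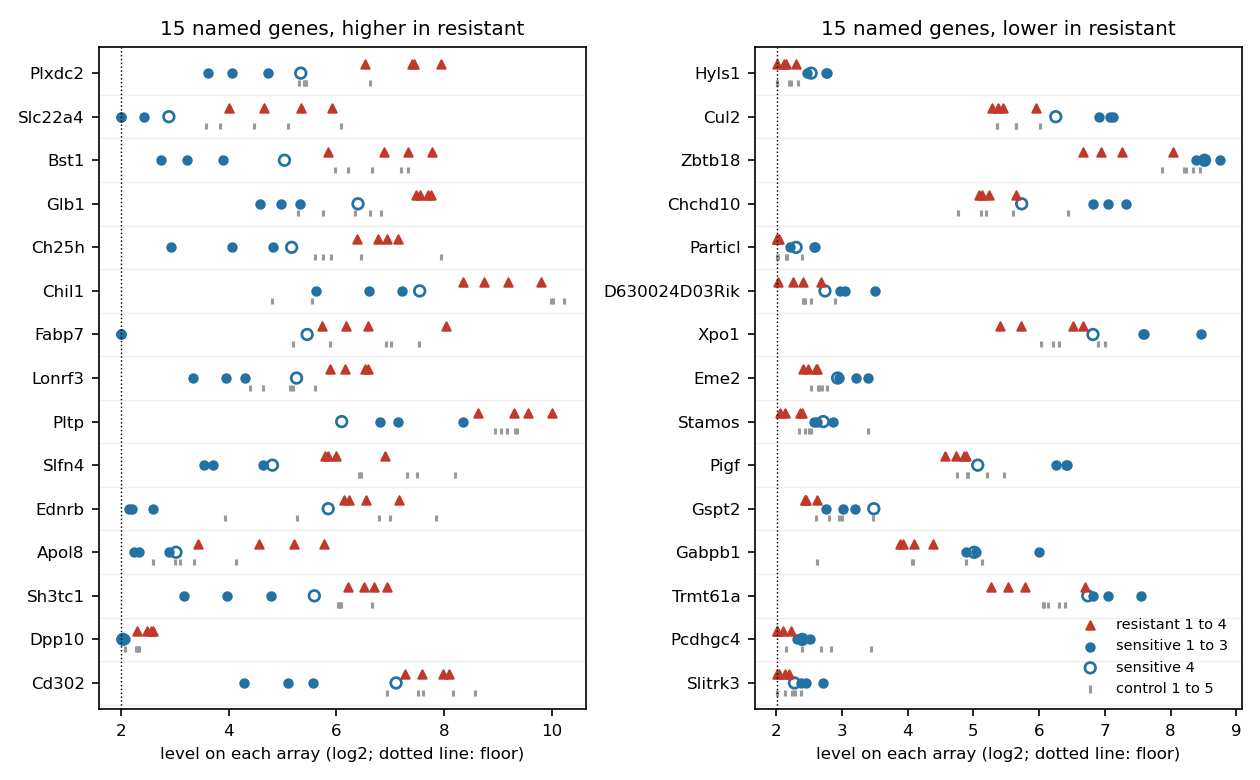
The level of each named gene on each array is plotted on the log2 scale, with triangles for resistant, filled circles for sensitive 1 to 3, an open circle for sensitive 4 and ticks for the 5 controls. The open circle is the highest sensitive array for 13 of 15 higher genes, and the lower genes have smaller gaps, 8 of 15 with means under 3.

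The named lower genes had smaller differences, and 8 of the 15 had means under 3. Cul2, the scaffold of the ubiquitin ligase that carries the von Hippel-Lindau protein, was 7.13, 6.92, 7.08 and 6.25 on the sensitive arrays and 5.28, 5.95, 5.37 and 5.45 on the resistant arrays, a difference of -1.33 (SE 0.37). All controls of Cul2, at 5.36 to 6.02, were below the sensitive arrays and overlapped the resistant ones. The other probe set of Cul2 differed by -0.27, and its groups overlapped. Zbtb18, a zinc finger repressor of transcription, was 8.75, 8.39, 8.52 and 8.52 on the sensitive arrays and 8.04, 7.26, 6.95 and 6.67 on the resistant arrays, a difference of -1.31 (SE 0.38). For Zbtb18, sensitive array 4 lay within the range of the other sensitive arrays. Xpo1, the receptor that exports proteins from the nucleus, was 7.58, 7.59, 8.46 and 6.82 on the sensitive arrays and 6.67, 6.52, 5.73 and 5.41 on the resistant arrays, a difference of -1.53 (SE 0.46). Its other probe sets differed by -0.07 and -0.05, so the difference was seen by a single probe set.

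Further lower genes with levels above the floor belong to mitochondria, RNA modification and membrane anchors. Chchd10, a protein of the mitochondrial intermembrane space, differed by -1.46 (SE 0.42), with sensitive array 4 at 5.73 just above the highest resistant array at 5.65. Pigf, an enzyme of glycosylphosphatidylinositol anchor synthesis, was 6.42, 6.26, 6.40 and 5.07 on the sensitive arrays and 4.88, 4.74, 4.57 and 4.86 on the resistant arrays, a difference of -1.28 (SE 0.41). Trmt61a, a subunit of a tRNA methyltransferase, differed by -1.23 (SE 0.42). Gabpb1, the partner of an ETS transcription factor, differed by -1.16 (SE 0.39), and its other probe set had the opposite sign, at 0.38. Hyls1, Particl, D630024D03Rik, Eme2, Stamos, Gspt2, Pcdhgc4 and Slitrk3 lay near the floor, with differences from -0.72 to -0.32. Other probe sets were present for 12 named genes, and 15 of these 16 probe sets had the same sign. These were 7 of 7 for higher genes and 8 of 9 for lower genes, where 42.1% of all differences were positive. For the lower genes they ran from -0.79 for Chchd10 to 0.38 for Gabpb1, and their groups overlapped. Of those 15, all showed smaller differences than the probe sets kept except Pltp, at 2.76, and Lonrf3, at 2.18. Groups did not overlap for 3 of the 16, at 0.79 for Plxdc2, 2.69 for Bst1 and 2.18 for Lonrf3. Slfn4, Apol8 and Pcdhgc4 belong to families of closely related genes, and cross-hybridization of their probe sets was not tested.

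Gene lists of pathways and cell types were then described on the members outside the lists set aside, 917 tested genes in 52 lists. The median of a list is given beside the median of all genes, -0.07, and the lists were chosen with earlier results of these data known. By this measure, 14 lists lay at least 0.5 above all genes and 1 at least 0.5 below. The other 37 lists lay between -0.38 and 0.47 of all genes.

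Lists of phagocyte functions had positive medians, but sensitive array 4 stood with the resistant arrays in them. Of 33 lysosomal genes, 30 had positive differences, with a median of 1.05, and 11 were higher at an unadjusted p of 0.05, a rule that 2.91% of all tested genes met. The lysosomal list medians were 6.99, 6.81, 7.55 and 9.21 on sensitive arrays 1 to 4 and 8.66, 8.33, 8.56 and 8.90 on resistant arrays 1 to 4. Sensitive array 4 was above all resistant arrays, so the groups overlapped. Npc1, which exports cholesterol from lysosomes, differed by 2.49 (SE 0.75), lysosomal acid lipase Lipa by 1.97 (SE 0.60) and cathepsin D, Ctsd, by 2.33 (SE 0.75), and Glb1 was the lysosomal gene whose groups did not overlap. All 17 genes of Fc receptors and immunoreceptor signaling had positive differences, with a median of 0.92. Of these, Sirpa, the receptor of the CD47 signal, differed by 2.13 (SE 0.80) and the activating receptor Fcgr4 by 2.30 (SE 0.91). All 5 subunits of the phagocyte oxidase were positive with a median of 1.63, among them Ncf4 at 2.18 (SE 1.01), but 0 of them passed an unadjusted p of 0.05. Of 18 genes of Toll-like receptors and their adaptors, 15 were positive with a median of 0.65, and Tlr13, an endosomal sensor of bacterial RNA, differed by 3.12 (SE 0.81). Of 12 purine and adrenergic receptor genes, 10 were positive with a median of 0.68, among them the nucleotide receptor P2ry6 at 2.81 (SE 1.21) and the ectonucleotidase Nt5e at 2.34 (SE 0.85). With sensitive arrays 1 to 3 left out, which leaves sensitive array 4 as the only sensitive array in a fit with the controls, the 5 lists were below all genes, at -0.48 for the lysosome, -0.61 for Fc receptors, -0.10 for the oxidase, -0.45 for Toll-like receptors and -0.98 for purine receptors. With the macrophage list mean as a covariate, again in a fit with the controls, they were also below, from -0.80 to -0.15. The first setting compares a single sensitive array and has no replicate check of its own. In the second, the covariate was 4.88, 5.24, 6.21 and 9.32 on the sensitive arrays and 8.05 to 9.43 on the resistant arrays. Its spread within groups thus came largely from sensitive array 4, and the settings are not separate checks.

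The lists of complement, coagulation, eicosanoids, iron handling and NRF2 had positive values relative to all genes in the same settings. The former setting rests on sensitive array 4 alone, and the latter largely on that array. Of 14 complement genes, 10 had positive differences, with a median of 0.60, and 3 were higher at an unadjusted p of 0.05. The complement list medians were 5.13, 5.19, 4.75 and 5.21 on the sensitive arrays and 5.71, 6.53, 6.69 and 6.15 on the resistant arrays. Here sensitive array 4 stood with the other sensitive arrays, and the groups did not overlap. Relative to all genes the list was at 0.67, at 1.06 without sensitive array 4, at 0.61 without sensitive arrays 1 to 3 and at 0.58 with the macrophage covariate. The complement list was at 0.45 without sensitive array 1 and at 0.46 without sensitive array 3. Single members were nevertheless high on sensitive array 4. Cfp, properdin, which stabilizes the alternative pathway convertase, was 3.61, 3.76, 4.96 and 7.29 on the sensitive arrays and 9.56, 7.07, 8.86 and 8.21 on the resistant arrays, a difference of 3.52 (SE 0.83). For Cfp, sensitive array 4 was above resistant array 2. The anaphylatoxin receptors C5ar1 and C3ar1 differed by 2.58 (SE 0.82) and 3.02 (SE 1.06).

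Of 17 genes of coagulation and fibrinolysis, 12 had positive differences, with a median of 0.57, and 4 were higher at an unadjusted p of 0.05. Their list medians were 5.59, 6.30, 4.78 and 6.60 on the sensitive arrays and 6.72, 7.26, 6.81 and 7.22 on the resistant arrays, again without overlap. Of the 52 lists described, complement and coagulation were those with medians without overlap, and this was not tested. Factor VII, F7, differed by 2.81 (SE 0.86) and the A subunit of factor XIII, F13a1, by 3.59 (SE 1.48), with sensitive array 4 of F13a1, at 10.34, above all resistant arrays. Relative to all genes the list was at 0.64, and at 0.17 without sensitive array 3. Of 18 eicosanoid genes beside Alox15, 14 were positive with a median of 0.98, and 5 were higher at an unadjusted p of 0.05. Alox5ap, which presents arachidonic acid to the leukotriene pathway, was 4.52, 6.16, 6.41 and 9.25 on the sensitive arrays and 9.74, 8.66, 8.98 and 10.11 on the resistant arrays, a difference of 2.78 (SE 0.85). Pla2g7, which inactivates platelet-activating factor, differed by 3.96 (SE 1.35) and thromboxane synthase Tbxas1 by 2.19 (SE 0.78). For each of these 3 genes, sensitive array 4 was at or above the lowest resistant array. The groups did not overlap for the prostaglandin receptors Ptger4, at 1.52 (SE 0.77), and Ptgir, at 0.44 (SE 0.29).

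Iron and redox genes were positive in most members. Of 10 iron handling genes, 9 had positive differences, with a median of 0.95, and 4 were higher at an unadjusted p of 0.05. Slc48a1, which carries heme out of the endolysosome, was 5.94, 6.56, 5.01 and 6.83 on the sensitive arrays and 7.09, 7.09, 7.37 and 7.44 on the resistant arrays, a difference of 1.16 (SE 0.44), and its groups did not overlap. Slc11a1, the metal transporter of phagosomes, differed by 2.28 (SE 0.98), with sensitive array 4 at 9.19 above all resistant arrays. Of 19 genes of NRF2 and glutathione, 14 were positive with a median of 0.54, and 5 were higher at an unadjusted p of 0.05. The cystine importer Slc7a11 was 2.01, 3.32, 3.13 and 6.57 on the sensitive arrays and 6.93, 6.22, 6.50 and 7.10 on the resistant arrays, a difference of 2.93 (SE 0.84). Thioredoxin reductase Txnrd1 differed by 1.72 (SE 0.54) and heme oxygenase Hmox1 by 2.02 (SE 0.84). On sensitive array 3 both list medians were the lowest of the 8 arrays, at 4.79 for iron handling and 5.54 for NRF2 and glutathione. Without sensitive arrays 1 to 3, the lists of eicosanoids, iron and NRF2 were at 0.20, 0.20 and 0.12 above all genes.

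Genes of cholesterol efflux, Pltp among them, were positive in 8 of 12 members with a median of 0.46, including Apoc2 at 2.16 (SE 0.71) and Apoe at 2.36 (SE 0.95). The list medians of the groups overlapped. Relative to all genes the list was at 0.53, at 0.22 without sensitive arrays 1 to 3 and at 0.32 with the macrophage covariate. In these 2 settings Apoe differed by -0.88 and -0.19, and Apoc2 by 0.41 and 1.08. Apoe was 12.18 on sensitive array 4, above the lowest resistant array at 10.44. Insig1, which holds back sterol synthesis, was 3.86, 5.49, 4.21 and 5.66 on the sensitive arrays and 6.66, 6.36, 7.25 and 5.71 on the resistant arrays, a difference of 1.68 (SE 0.53). Its groups were apart by a narrow margin between sensitive array 4 and resistant array 4.

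**Figure D3:**
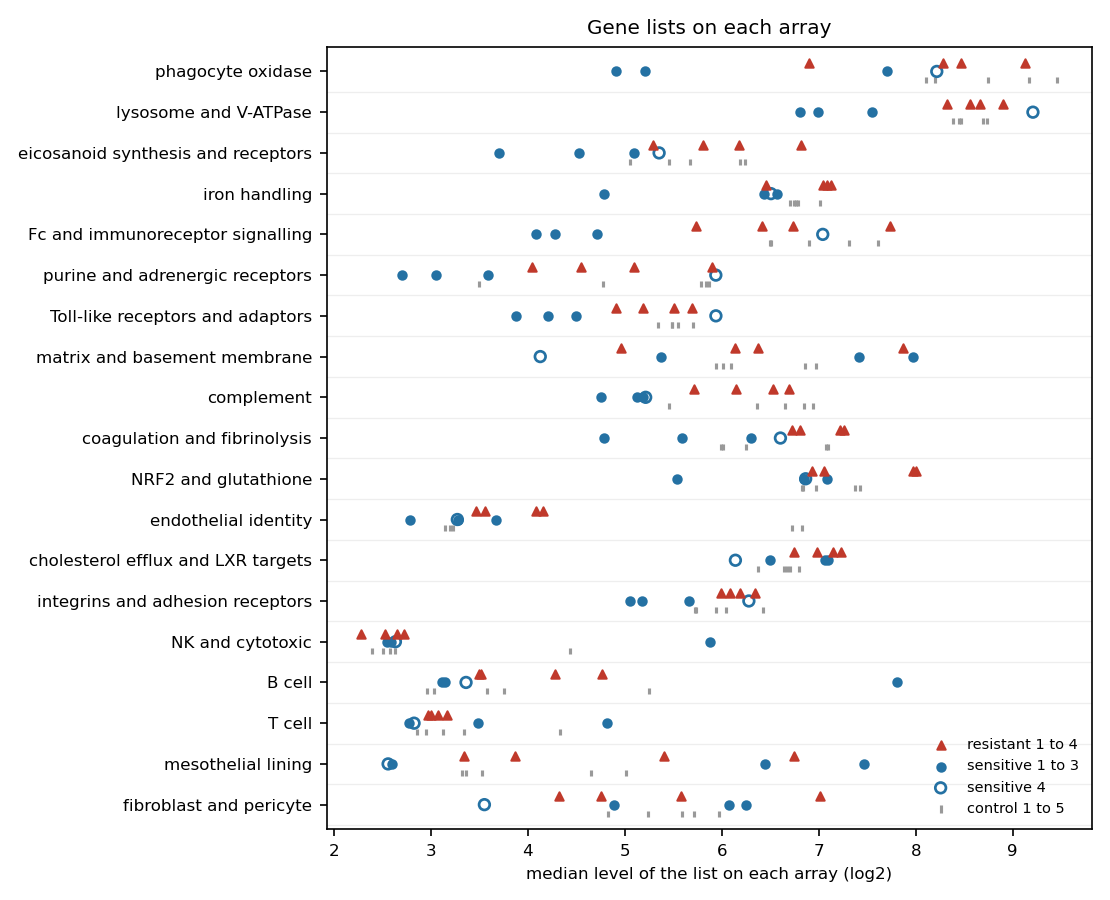
Each marker is the median log2 level of a gene list on an array, with triangles for resistant, filled circles for sensitive 1 to 3, an open circle for sensitive 4 and ticks for controls. For complement (4.75 to 5.21 against 5.71 to 6.69) and coagulation (4.78 to 6.60 against 6.72 to 7.26) the groups do not overlap, whereas for the lysosome the open circle, at 9.21, lies above all resistant arrays.

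Vessel and stroma genes were examined next, since the sort was made for endothelium. Of 25 endothelial identity genes, 18 had positive differences, with a median of 0.53, and 5 were higher at an unadjusted p of 0.05. The list medians were 3.68, 3.28, 2.78 and 3.27 on the sensitive arrays and 4.15, 3.56, 4.09 and 3.46 on the resistant arrays, which overlapped. Relative to all genes the list was at 0.60, at 0.38 without sensitive array 3, at 0.28 without sensitive arrays 1 to 3 and at 0.11 with the macrophage covariate. Plvap, a protein of the diaphragms of fenestrated endothelium, was 4.87, 4.004, 2.98 and 4.90 on the sensitive arrays and 6.39, 5.17, 6.12 and 6.005 on the resistant arrays, a difference of 1.73 (SE 0.52). Its groups did not overlap. Plvap was 4.06, 3.64 and 4.24 on control arrays 1 to 3, and 8.86 and 9.37 on control arrays 4 and 5. Cdh5 differed by 1.12 (SE 0.39), and by 0.15 with the macrophage covariate. Robo4, a guidance receptor of endothelium, differed by 0.79 (SE 0.33) and the sialomucin Emcn by 0.53 (SE 0.21). In the VEGF, angiopoietin and Notch list, the Notch ligand Jag1 was 2.47, 3.56, 3.08 and 6.85 on the sensitive arrays and 6.72, 5.73, 6.65 and 6.72 on the resistant arrays, a difference of 2.47 (SE 0.84). For Jag1, sensitive array 4 was above all resistant arrays, and for its receptor Notch2, at 1.498 (SE 0.55), above resistant array 2. Bmp2, among growth factors other than VEGF, was 4.17, 5.31, 2.75 and 5.39 on the sensitive arrays and 6.82, 6.47, 6.20 and 6.17 on the resistant arrays, a difference of 2.01 (SE 0.59). The groups of Bmp2 did not overlap, and all controls, at 4.92 to 5.84, were below the resistant arrays.

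Of 24 integrins and adhesion receptors, 18 were positive with a median of 0.44, among them the fibronectin receptor subunit Itga5 at 1.54 (SE 0.51). Of 23 matrix and basement membrane genes, 20 were positive with a median of 0.63, and 1 was higher at an unadjusted p of 0.05, fibronectin Fn1 at 1.81 (SE 0.69). The matrix medians were 7.41, 7.97, 5.37 and 4.13 on the sensitive arrays and 4.96, 7.87, 6.14 and 6.37 on the resistant arrays, so that single arrays set this list. It was at -0.25 relative to all genes without sensitive array 4 and at 1.74 without sensitive arrays 1 to 3. The mesothelial and fibroblast lists moved alike, from -0.71 and -0.27 in the first setting to 2.11 and 1.89 in the second. Their part in the matrix values was not tested.

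**Figure D4:**
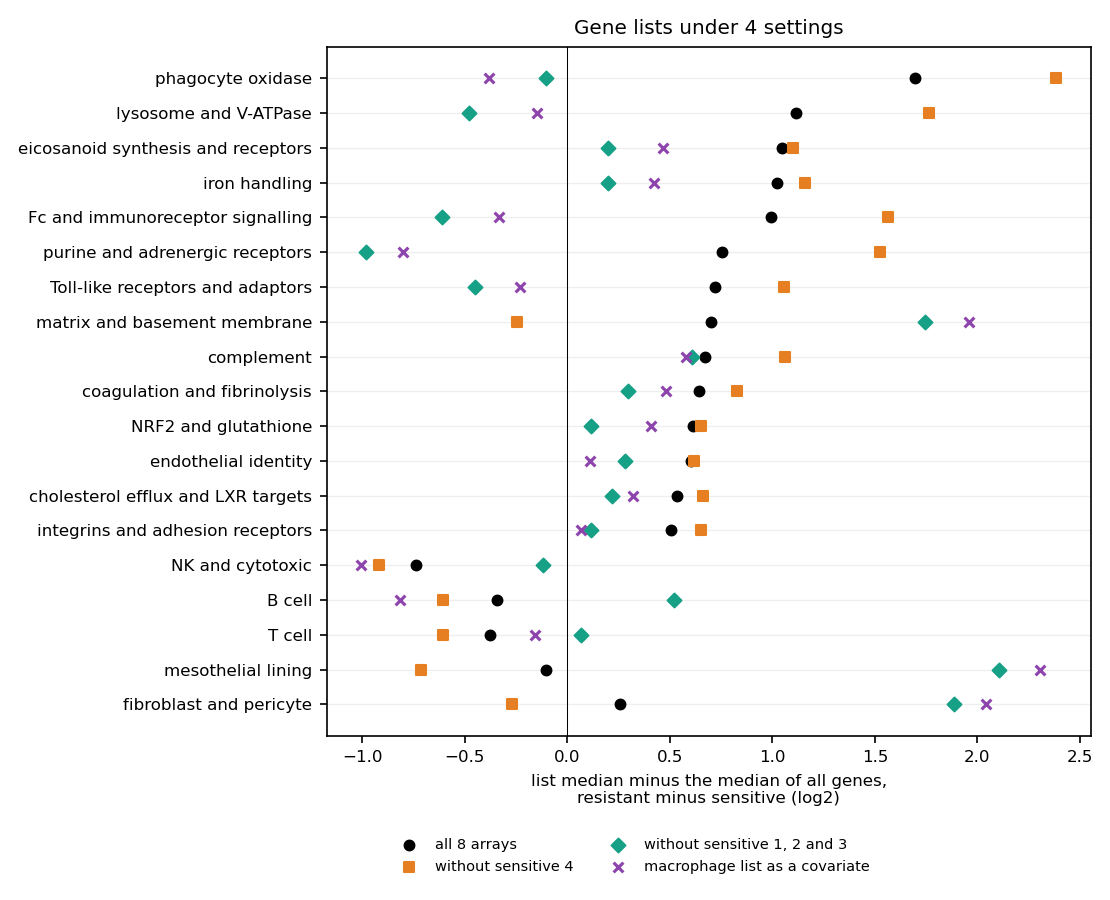
The median difference of each list minus the median of all genes (log2) is shown with all 8 arrays, without sensitive 4, without sensitive 1 to 3 (sensitive 4 alone remaining) and with the macrophage list as a covariate, the last 2 fitted with the controls. Complement has 0.58 to 1.06 in these 4 settings, and 0.45 without sensitive 1, which is not shown. Lysosome genes run from -0.48 to 1.76 and matrix genes from -0.25 to 1.96.

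Other mediators and proteases of the stroma had medians nearer to all genes. Of 26 chemokines and their receptors, 18 had positive differences, with a median of 0.28, and 4 were higher at an unadjusted p of 0.05. Relative to all genes this list was at 0.35, at -0.13 without sensitive arrays 1 to 3 and at -0.14 with the macrophage covariate. Ccl6, a chemokine of myeloid cells, was 3.92, 5.93, 5.91 and 9.13 on the sensitive arrays and 10.86, 8.36, 9.44 and 9.94 on the resistant arrays, a difference of 3.43 (SE 0.97). Ccl9 differed by 2.89 (SE 0.91), Cxcl14 by 2.85 (SE 1.003) and the receptor Ccr1 by 3.22 (SE 1.28). Sensitive array 4 exceeded at least 1 resistant array for each of these 4 genes. Of 20 metalloproteinases and inhibitors, 16 were positive with a median of 0.40, and the macrophage elastase Mmp12, at 2.39 (SE 0.79), Adam8, at 2.80 (SE 1.09), and the collagenase Mmp13, at 2.64 (SE 1.08), were higher at an unadjusted p of 0.05. For Mmp13, sensitive array 4 was 7.53, near the highest resistant array. Oncostatin M, Osm, a cytokine of myeloid cells among the growth factors, was 4.99, 4.50, 5.34 and 9.31 on the sensitive arrays and 9.47, 8.06, 9.37 and 8.23 on the resistant arrays, a difference of 2.74 (SE 0.95). Of 19 genes of PI3K, AKT and mTOR, 9 were positive with a median of -0.05, among them Pik3cb at 1.79 (SE 0.68) and Akt1 at 1.21 (SE 0.53). Medians close to that of all genes were also found for 25 interferon response genes, at -0.04, 36 genes of oxidative phosphorylation, at -0.12, and 27 proteasome genes, at -0.05. Of 29 cell cycle genes, 8 were positive with a median of -0.24, and 0 were called or passed an unadjusted p of 0.05 in either direction.

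Lymphocyte and splicing lists had negative medians. Those of the lymphocyte lists rested on sensitive array 3, and that of the splicing list was weaker without this array. All 10 genes of NK and cytotoxic cells had negative differences, with a median of -0.81. Their list medians were 5.88 on sensitive array 3 and 2.54 to 2.63 on the other sensitive arrays, and without sensitive array 3 the list was at 0.06 relative to all genes. Perforin, Prf1, was 3.14, 2.57, 5.10 and 2.74 on the sensitive arrays and 2.34, 2.39, 2.33 and 2.51 on the resistant arrays, without overlap but near the floor. For B cells, 3 of 17 genes were positive, and for T cells 1 of 13, and sensitive array 3 again had the highest medians, 7.81 and 4.82. Without that array the B cell list was at 0.82 and the T cell list at 0.02 relative to all genes. Of 26 splicing factors, 7 were positive. Relative to all genes the splicing list was at -0.27, and at -0.09 without sensitive array 3, which had its highest median at 8.74. Luc7l3, a splicing factor, was 6.82, 7.57, 7.36 and 7.07 on the sensitive arrays and 6.45, 6.76, 6.61 and 6.12 on the resistant arrays, a difference of -0.72 (SE 0.35) without overlap. Over all 52 lists, the groups were apart for 12 higher and 5 lower members, 1.31% and 0.545% of 917, against 0.975% and 0.897% of all tested genes, so these members are given as values only. The higher members not yet given were transaldolase Taldo1 at 0.83 (SE 0.37), the disulfide isomerase P4hb at 1.04 (SE 0.45), the inflammatory caspase Casp4 at 1.12 (SE 0.38) and the clock gene Per2 at 1.15 (SE 0.41). The lower ones were the interferon-induced Ifi35 at -0.94 (SE 0.45), Fdps of sterol synthesis at -0.39 (SE 0.15) and Cyc1 of respiratory complex III at -0.44 (SE 0.30).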

How the data were processed

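Mouse cells sorted on CD31 were profiled on 13 single-color arrays, 5 control, 4 sensitive and 4 resistant, grouped by the labels. The sources differ on processing: per the labels, biotin-labeled cRNA was processed with MAS5 by the Affymetrix protocol, whereas the study's methods name Illumina bead chips and BRB-ArrayTools. The deposited table held values for 45101 Affymetrix probe sets, taken as log2 intensities from their range. The sources used here give neither the base of the logarithm nor the authors' normalization, and no genome build is named for the values.

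Arrays were quantile normalized and values under the 30th percentile, 2.01, were set to it, which understates changes of dim genes. Where a gene had several probe sets, the one with the highest mean over 13 arrays was kept (18193 genes), and genes above the floor on 4 or more arrays entered the test. Resistant and sensitive arrays entered a limma fit (version 3.58.1, R 4.3.3, lmFit, eBayes with an intensity trend, 8 arrays, 6 residual degrees of freedom), and two-sided p-values of 15384 genes were adjusted by Benjamini-Hochberg, with a threshold of 0.05. This 2-group form follows the study's methods, and the fit over all 3 groups is given beside it. The scripts were tested on simulated data. The members and the gene lists were chosen with earlier results of these data known, and 57 lists were used, of which 5 (macrophage, hypoxia and related lists) were set aside. Named genes are the 15 higher and the 15 lower genes outside those 5 lists with the smallest p among genes whose groups did not overlap, at most 4 members per list, and the references Cd5l, Alox15, Prg4, Pecam1 and Lyz2. List members described for non-overlapping groups beyond these were chosen after their values were seen. Promoters came from a RefSeq table that held 27 of the 35 named and reference genes outside chromosome 18. Alternatives covered scaling, floor, filter, probe set rule, variance model, the methods' t-test, covariates, the replicate block and left-out arrays. The number of arrays limits the precision.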

Additional observations from a re-analysis of the deposited data

Results flagged for a closer look

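Samples far from the rest of their group of 4 were sought among the named and reference genes and the list medians, where the gap to the nearest array divided by the range of the group exceeded Dixon's critical value for 4 samples. Of 174 groups examined, 16 met this, and chance gives about 1 in 20.

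Sensitive array 4 stood apart for Fabp7 at 5.46 against 2.01 on the other sensitive arrays, for Ednrb at 5.85 against 2.16 to 2.60, for Lyz2, the macrophage lysozyme, at 11.11 against 7.45 to 8.05, and for Pigf at 5.07 against 6.26 to 6.42. Sensitive array 3 stood apart in the B cell list at 7.81 against 3.12 to 3.36 and in the NK and cytotoxic list at 5.88 against 2.54 to 2.63. The same array was high in the cytosolic ribosome list at 10.85 against 9.65 to 9.77 and in Gabpb1 at 6.0 against 4.89 to 5.04. It was low in the NRF2 and glutathione list at 5.54 against 6.85 to 7.08 and in the iron handling list at 4.79 against 6.43 to 6.57. Sensitive array 1 was low in the oxidative phosphorylation list at 7.01 against 7.60 to 7.66.

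Among the resistant arrays, array 4 was high in the neutrophil list at 4.63 against 3.60 to 3.67 and low in the immediate early list at 7.99 against 8.995 to 9.08. Resistant array 1 was low in the iron handling list at 6.45 against 7.05 to 7.13 and, within a narrow range at the floor, high in Particl at 2.04 against 2.01. Resistant array 3 was high in Gspt2 at 2.62 against 2.44 to 2.45.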

How the results depend on the processing

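None of the 35 named and reference genes changed sign in any of 25 alternatives, of which 3 were chosen after seeing the data. The named genes were picked for groups without overlap, so leaving out arrays or changing the variance model could not change their sign. Cd5l ranged from 3.74 to 5.19 (adjusted p 0.00604 to 0.9996) and Alox15 from 3.01 to 4.10 (adjusted p 0.00547 to 0.9996). Against 2 called genes, 0 were called with the control arrays included (1087 at an unadjusted p of 0.05), without quantile normalization, without the filter, without the trend and by the methods' t-test (529 at an unadjusted p of 0.05). Array weights gave 4, the macrophage covariate 6, the 3′ to 5′ covariate 132 and, added later, the spiked control covariate 10 and the fit without resistant arrays 2 and 3 0. Leaving out 1 array gave 0 to 147 called genes, the 147 without sensitive array 4, and 405 to 1546 genes without overlap against 288. Without quantile normalization the split at an unadjusted p was 490 higher and 61 lower, and the median of all genes moved from -0.07 to 0.04.

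Lists at least 0.5 above all genes numbered 14, and 24 without quantile normalization, 5 with the macrophage covariate, 8 without sensitive arrays 1 to 3 and 11 to 18 when 1 array was left out. Lists below numbered 1, and 0 with array weights, 5 with the macrophage covariate, 3 without sensitive arrays 1 to 3, 2 with the spiked control covariate, 3 without sensitive arrays 1 and 2, 4 without resistant arrays 2 and 3 and 1 to 4 when 1 array was left out. The causes were not tested. The replicate block gave 0 called genes (581 at an unadjusted p of 0.05). Same-numbered arrays deviated together at -0.389, 0.530, 0.127 and -0.141. For the same resistant arrays, the highest value with another sensitive array was 0.532, 0.249, 0.043 and 0.270. These values do not settle whether the numbers pair the samples.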
